A study of Rattus norvegicus with 2 samples.

Results

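The miR-183 cluster, which holds miR-183, miR-96 and miR-182, is a group of small RNA genes that lie next to each other on the minus strand of rat chromosome 4. Its members were taken from the deposited table of reads as every mature form of miR-182, miR-183 or miR-96, with or without a suffix for the arm of the hairpin. This gave 4 of the 406 miRNAs in the table, namely miR-182, miR-183-5p, miR-183-3p and miR-96-5p. The rule uses names only, but the cluster was picked with earlier results of these data known.

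The study asked which miRNAs rat beta cells export to high-density lipoproteins (HDL), the plasma particles that carry cholesterol and also small RNAs. Native HDL (nHDL) from human plasma was added at 1 mg/mL to INS-1 832/13 cells, a rat insulinoma line used as a beta cell model, and kept with them for 24 h at 3 mM glucose (INS-1-nHDL). The control was the same kind of nHDL held in medium without cells (cf-nHDL), and particles were recovered from the medium through their apoA-I protein before RNA was extracted. Each condition was 1 small RNA library made from a pool of 3 samples. Within these sequencing data, differences between the conditions therefore lack a replicate check and were not tested. Measurements that the study made by other methods were not used here. The intervals given below cover only the counting error of these 2 libraries. The particles carried human RNA from the start, and all reads were counted against rat sequences. Which reads came from human and which from rat RNA was not analysed here.

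Members of the cluster are made as 1 long primary transcript that is cut into separate hairpins, each of which yields a mature miRNA of about the same size. A mature miRNA pairs with target mRNAs mainly through its seed, bases 2 to 8, and lowers their translation and stability. The cluster is best known from sensory cells of the eye and inner ear, where changes in the seed of miR-96 cause hearing loss, and it is also expressed in neuroendocrine and epithelial cells. Except for miR-183-3p, the members resemble each other in sequence, as the mature forms show. They are printed from 5′ to 3′ to show how far the members share a seed and how far their reads can be told apart, and capitals mark the seed.
miR-183-5p: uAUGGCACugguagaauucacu
miR-183-3p: uGAAUUACcgaagggccauaa
miR-96-5p: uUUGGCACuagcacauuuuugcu
miR-182: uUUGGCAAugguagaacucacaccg

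miR-182 and miR-96-5p shared bases 2 to 7 of the seed, UUGGCA, and differed at base 8. No other mature miRNA of the table, nor of the RefSeq rat set, carried these 6 bases at that place. The seed of miR-183-5p was held by no other miRNA of either set. Over the whole mature sequence, miR-182 was closer to miR-183-5p, with 18 of 22 aligned positions equal and a shared run of 8 bases, UGGUAGAA, at positions 9 to 16 of both. With miR-96-5p it had 12 of 23 positions equal, and with miR-183-3p 6 of 21. The nearest miRNA of the table to miR-182 was miR-183-5p, 4 mismatches away, while the alignment allowed 1. Full-length reads of these members therefore did not match another member within that limit. The reads of all 4 were whole numbers in the table, where 11 other miRNAs had fractional counts.

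In the rat build that the study writes as rno5, miR-183-5p lies at chr4:57225432-57225453, miR-183-3p at chr4:57225393-57225413, miR-96-5p at chr4:57225227-57225249 and miR-182 at chr4:57221577-57221601, all on the minus strand. The cluster, from miR-183-5p to miR-182, spans 3877 bases. On the minus strand miR-183-5p comes first, the start coordinate of miR-96-5p lies 205 bases from that of miR-183-5p, and that of miR-182 lies a further 3650 bases on. In the RefSeq annotation of GRCr8, another rat assembly, the 3 hairpin genes overlap no protein-coding gene and lie between Nrf1 and Ube2h. On the other strand, that annotation places miR-3553, whose reverse complement holds all 22 bases of miR-183-5p. miR-3553 is not among the miRNAs of the table, so that its reads could not be analysed here. Whether the authors counted reads by strand is not given in the sources used here.

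**Figure D1:**
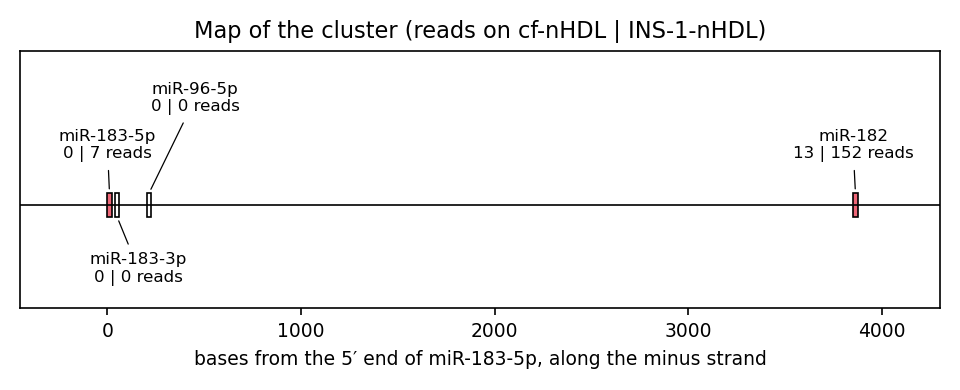
Map of the cluster, with the distance in bases from the 5′ end of miR-183-5p along the minus strand on the horizontal axis. Boxes are mature miRNAs to scale, filled where INS-1-nHDL had reads, and the numbers are reads in the control and after incubation with cells. The miRNA with the most reads, miR-182, is the one farthest from miR-183-5p.

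The hairpins of the members with reads are shown to place the sequenced arm, with the mature miRNA in capitals (RefSeq, GRCr8, minus strand).
Mir182: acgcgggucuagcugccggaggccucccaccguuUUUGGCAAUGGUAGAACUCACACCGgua
Mir183: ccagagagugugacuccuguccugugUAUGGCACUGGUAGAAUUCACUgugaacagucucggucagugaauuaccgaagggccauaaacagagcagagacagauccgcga
miR-182 takes bases 35 to 59 of the 62 bases that RefSeq gives for its hairpin, and the files give it no arm suffix. miR-183-5p takes bases 27 to 48 of 110, and miR-183-3p, from the other side of the same hairpin, takes bases 67 to 87.

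Reads on miRNAs totalled 6585 on cf-nHDL against 18008 on INS-1-nHDL, of which miR-375-3p, a miRNA highly expressed in islets, took 231 and 11219. With these totals, a member with 0 reads may still have had a share of up to 0.0456% of the miRNA reads in the cf-nHDL library and 0.0167% on INS-1-nHDL (3 reads of the total). PCR copies of 1 molecule could not be recognised, which adds error that no interval here includes. Of the miRNAs on the lists written for other sources, the 5 blood cell miRNAs with reads had 2544 reads in sum on cf-nHDL. After incubation with cells they had 756. Most of these reads were miR-16-5p (2486 and 741 reads). Each of the 5 was among the 32 below 1/1.5-fold, out of 81 miRNAs with at least 5 reads in either library. miR-223-3p (7 and 0 reads) reached 5 reads on cf-nHDL alone. The liver miRNA miR-122-5p had 0 reads in both libraries. In sum, the epithelial list, to which the miR-200 family, miR-203a-3p and miR-205 belong, had 683 reads on cf-nHDL compared with 2025 on INS-1-nHDL. Of these, miR-203a-3p, with 570 and 1997 reads, was above 1.5-fold, while miR-141-3p (85 and 17 reads) and miR-205 (24 and 9 reads) were below 1/1.5-fold. Without miR-203a-3p, the list had 113 reads on cf-nHDL and 28 after incubation with cells. Of the islet and neuroendocrine list, 3 of the 7 miRNAs in the table had reads, which were miR-375-3p, miR-129-5p (0 and 9 reads) and miR-127-3p (8 and 0 reads). The part of these sources in the values of the cluster was not tested.

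Nearly all of the cluster's reads belonged to miR-182. miR-182 had 13 reads on cf-nHDL against 152 on INS-1-nHDL. miR-183-5p had 0 reads in the cf-nHDL library and 7 on INS-1-nHDL. miR-183-3p, the other arm of that hairpin, had 0 reads in both libraries, and so did miR-96-5p, which shares most of its seed with miR-182. Thus 1 of the 4 members was detected on cf-nHDL, while 2 were detected on INS-1-nHDL. The members are 21 to 25 bases long, and reads were compared between them without dividing by length. Read lengths were not analysed here.

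**Figure D2:**
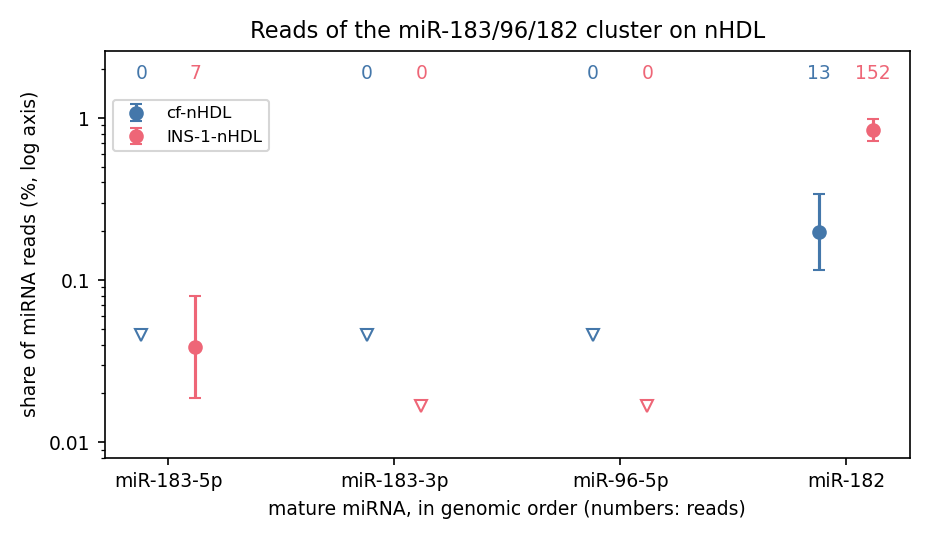
Share of all miRNA reads in percent (log axis) for the 4 members, with the 1 cf-nHDL library in blue and the 1 INS-1-nHDL library in red. Points are shares with Wilson 95% intervals, open triangles are the limits that 0 reads allow, and the numbers at the top are reads; the intervals of miR-182 do not overlap between the libraries.

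Of the cf-nHDL reads on miRNAs, 0.197% were miR-182 (Wilson interval at 95%, 0.115 to 0.337%). The corresponding share of the INS-1-nHDL library was 0.844% (0.721 to 0.989%), and these intervals did not overlap. miR-375-3p alone made up 62.3% of the INS-1-nHDL reads and 3.51% of those on cf-nHDL, which lowers the share of every other miRNA on INS-1-nHDL. With miR-375-3p left out of the total, the share of miR-182 was 0.205% (0.120 to 0.350%) on cf-nHDL and 2.24% (1.91 to 2.62%) on INS-1-nHDL. The share of miR-183-5p on INS-1-nHDL was 0.0389% (0.0188 to 0.0802%), and the limit of 0.0456% for its 0 reads on cf-nHDL lies inside that interval.

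To compare the libraries, reads were divided by DESeq2 size factors, whose ratio between INS-1-nHDL and cf-nHDL was 1.98, so that equal normalised levels correspond to this ratio of reads. miR-182 then had 18.3 normalised reads in the control and 107.9 after incubation with cells. The fold change was 5.89, with an exact 95% interval from 3.34 to 11.3, which is 2.56 as log2. miR-183-5p was at least 1.18-fold higher on INS-1-nHDL when 3 reads were taken for cf-nHDL. Its exact interval, from 0.726 with no upper end, holds 1. A higher level on INS-1-nHDL was therefore not detectable at this depth with these size factors. No fold change can be given for miR-183-3p and miR-96-5p. The summed reads of the cluster, 13 and 159, had a fold change of 6.16 (3.50 to 11.8), which differs little from that of miR-182 because miR-182 held most of the reads.

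Fold changes of the miRNAs kept for the comparison, those that reached 5 reads in either library, give the background. Of these 81 miRNAs, 40 (49.4%) were above 1.5-fold on INS-1-nHDL (a miRNA with 0 reads on cf-nHDL also counts), and for 25 (30.9%) the whole interval was above 1.5. miR-182 was among the 40 and among the 25. miR-183-5p also counts among the 40, but this follows from its 0 reads on cf-nHDL, since it was kept for its reads on INS-1-nHDL alone, and its value against 3 reads, 1.18, was below 1.5. The other members, miR-183-3p and miR-96-5p, did not enter because they had no reads. With about every other kept miRNA above 1.5-fold, these counts say nothing particular about the cluster, and the size of the change in miR-182 has to be read against single miRNAs. miR-183-5p was 1 of 17 kept miRNAs with 0 reads on cf-nHDL. These had from 7 to 43 reads on INS-1-nHDL with a median of 15, and miR-183-5p had the fewest.

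**Figure D3:**
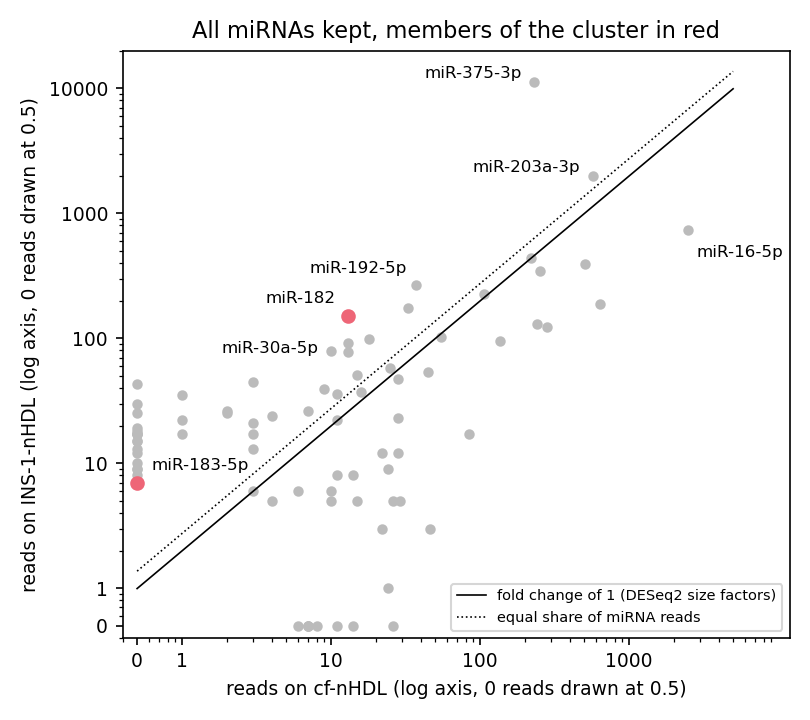
Reads on cf-nHDL against reads on INS-1-nHDL for the 81 miRNAs kept, both on log axes with 0 reads drawn at 0.5, and the 2 kept members of the cluster in red. The solid line is a fold change of 1 under the DESeq2 size factors and the dotted line an equal share of all miRNA reads; miR-182 lies above both, and miR-183-5p is the lowest point of the column at 0 reads on cf-nHDL.

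The place of miR-182 among all miRNAs differed between the libraries. On cf-nHDL it stood at rank 35, level with let-7f-5p and miR-340-5p at 13 reads each. The miRNAs next above it, let-7a-5p and miR-186-5p, had 14 reads each, and 4 miRNAs came next below with 11 reads, let-7c-5p and miR-101b-3p among them. The exact Poisson interval of 13 reads, 6.92 to 22.2, holds all of these values, so that this order cannot be told from counting error. On INS-1-nHDL, miR-182 stood at rank 11 of the 97 miRNAs with reads. There its neighbours were miR-10a-5p with 187 reads and miR-378a-3p with 175 above, and miR-125b-2-3p with 131 and miR-320-3p with 122 below. The interval of its own 152 reads, 128.8 to 178.2, held the values of miR-378a-3p and miR-125b-2-3p and did not hold those of miR-10a-5p and miR-320-3p. It still overlapped the intervals of miR-10a-5p (161.2 to 215.8) and miR-320-3p (101.3 to 145.7), which have counting error of their own. The miRNAs beside miR-182 on INS-1-nHDL had more reads than it on cf-nHDL, with 638 for miR-10a-5p, 33 for miR-378a-3p, 242 for miR-125b-2-3p and 280 for miR-320-3p.

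Among the 43 miRNAs with more than 3 reads in each library, miR-182 had the largest fold change after miR-375-3p. This selection leaves out miRNAs that were nearly or fully missing on cf-nHDL. Of the 10 kept miRNAs with 1 to 3 reads there, 6 had a larger fold change than miR-182, among them miR-328a-3p (1 and 35 reads, 17.6-fold, 2.96 to 716.4) and let-7b-5p (3 and 45 reads, 7.56-fold, 2.43 to 38.0), and all 6 intervals held the value of miR-182. With 3 reads taken in place of 1 or 2, miR-328a-3p is almost level with miR-182, at 5.88. Only let-7b-5p of these, which has 3 reads as counted, then stays above miR-182. Of the 17 with 0 reads, miR-1224 (43 reads on INS-1-nHDL) was at least 7.22-fold higher against 3 reads, with an interval that starts at 5.63. Among the 43, the nearest to it on the log2 scale were miR-30a-5p (10 and 79 reads), which differed by 0.57, miR-192-5p (37 and 266 reads), by 0.70, and miR-340-5p (13 and 91 reads), by 0.74. This likeness rests on 2 libraries. The ratio of the fold changes of a pair of miRNAs does not depend on the scaling between the libraries, and its exact 95% interval was computed for miR-182 against each of the 80 other kept miRNAs, without adjustment for their number. The fold change of miR-182 was 1.48 times that of miR-30a-5p (0.553 to 3.84), 1.63 times that of miR-192-5p (0.814 to 3.44) and 1.67 times that of miR-340-5p (0.679 to 4.09). These intervals hold 1, so that miR-182 was not separated from the miRNAs next in order. It was above miR-378a-3p by a factor of 2.20 (1.08 to 4.73) and above miR-203a-3p by 3.34 (1.88 to 6.46), the miRNA with the most reads after miR-375-3p on INS-1-nHDL. Against miR-375-3p, its fold change was 0.241 times as large (0.134 to 0.470).

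Over all 80 pairs, miR-182 had the higher fold change of the pair, with an interval that excluded 1, in 44 cases, and the lower one in 1 case, that of miR-375-3p. Of the 44, 8 had 0 reads on INS-1-nHDL and were kept for their reads on cf-nHDL alone, while 36 had reads in the INS-1-nHDL library. Among these 36, let-7g-5p (22 and 3 reads), miR-423-3p (46 and 3 reads) and miR-125a-5p (24 and 1 reads) were also kept for their cf-nHDL reads alone. For all miRNAs kept in this way, the lower fold change was set by the selection. The interval held 1 for the remaining 35 pairs, and 27 of these had 3 reads or fewer on cf-nHDL. Against the sum of all other miRNAs except miR-375-3p, 6341 reads on cf-nHDL against 6637 on INS-1-nHDL, the reads of miR-182 were 11.2 times as many on INS-1-nHDL relative to cf-nHDL (6.33 to 21.5). miR-375-3p had 17.8 times as many reads as miR-182 on cf-nHDL (10.2 to 33.9) and 73.8 times as many on INS-1-nHDL (62.9 to 87.2). The distance between both miRNAs was thus wider on INS-1-nHDL, although each had more reads there.

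**Figure D4:**
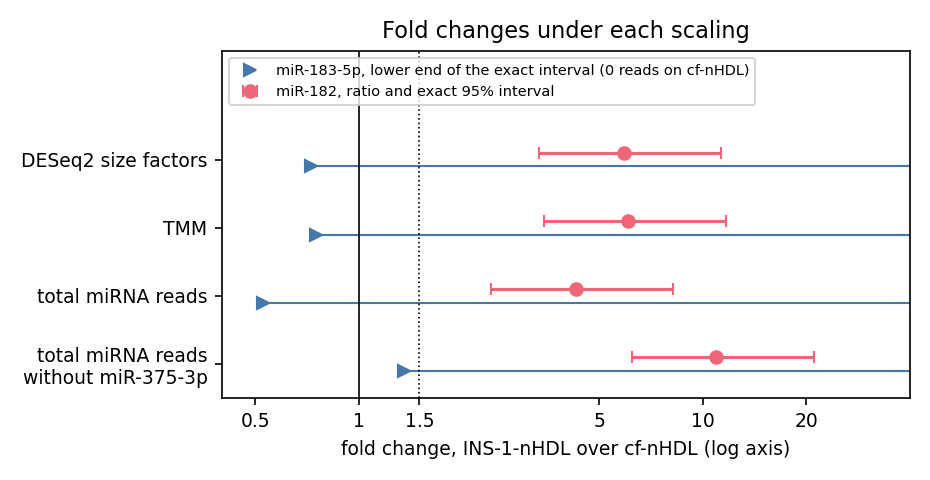
Fold change on INS-1-nHDL over cf-nHDL (log axis) of miR-182, with its exact 95% interval in red, and of miR-183-5p, for which only the lower end of the interval exists (blue), under 4 scalings of the libraries. Vertical lines mark 1 (solid) and 1.5 (dotted); the interval of miR-182 stays above 1.5 throughout, and that of miR-183-5p starts above 1 only when miR-375-3p is left out of the total.

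The size of the change in miR-182 depended on the scaling. It was 4.28 (2.43 to 8.21) with total miRNA reads as the scale and 10.9 (6.21 to 21.0) with miR-375-3p taken out of that total, while edgeR TMM normalization gave 6.07 (3.45 to 11.7). For miR-183-5p, the value against 3 reads was 0.853 under total miRNA reads and 2.18 without miR-375-3p, with intervals that start at 0.527 and 1.35.

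Members of 1 transcript had unequal numbers of reads. On INS-1-nHDL, miR-182 had 21.7 times as many reads as miR-183-5p (exact 95% interval 10.3 to 54.9) and made up 95.6% of the 159 reads of the cluster (Wilson interval 91.2 to 97.9%). Against the 0 reads of miR-96-5p, and likewise against those of miR-183-3p, it had at least 50.7 times as many reads when 3 reads were taken for them, and the exact interval of this ratio starts at 40.7. On cf-nHDL, all 13 reads of the cluster were from miR-182, which is 4.33 times the 3 reads taken for each other member. The exact interval of that ratio starts lower, at 3.05. Whether the ratio between members differed between the libraries was not detectable: at the cf-nHDL to INS-1-nHDL ratio of miR-182, the 7 reads of miR-183-5p correspond to 0.599 reads on cf-nHDL, where 0 were counted. How far capture of each sequence during library preparation shaped these ratios was not tested.

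Other clusters of the table had unequal members as well. Of 20 genomic groups (miRNAs on 1 chromosome and strand with starts within 10000 bases of the next) with reads from at least 2 hairpins, 14 had a miRNA with at least 20 reads in a library. In 7 of these the highest miRNA on INS-1-nHDL could be set against more than 3 reads of a miRNA from another hairpin. Among these 7, miR-27b-3p over miR-23b-3p had the largest ratio, 28.6 (16.2 to 55.9, from 343 and 12 reads), followed by miR-182 over miR-183-5p. Their intervals overlap. miR-27a-3p had 7.92 times as many reads as miR-23a-3p (4.33 to 15.9), and miR-25-3p had 2.32 times as many as miR-93-5p (1.43 to 3.87). The lowest ratio was 1.25, for let-7b-5p over let-7c-5p. In 6 further groups the next miRNA had 1 or 2 reads. Their ratios, which rest on these few reads, ran from 23.5 (6.15 to 199.7) for miR-30e-5p over miR-30c-5p to 370.5 (102.2 to 3065) for miR-16-5p (741 reads) over miR-15b-5p (2 reads). Of these 6 intervals, the last is the only one that does not overlap that of miR-182 over miR-183-5p. In 1 group, that of miR-125a-5p and let-7e-5p, the highest miRNA had 1 read on INS-1-nHDL, and no ratio was formed. Several of the miRNAs in these groups have more than 1 place in the genome, and their reads were then counted in each group.

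**Figure D5:**
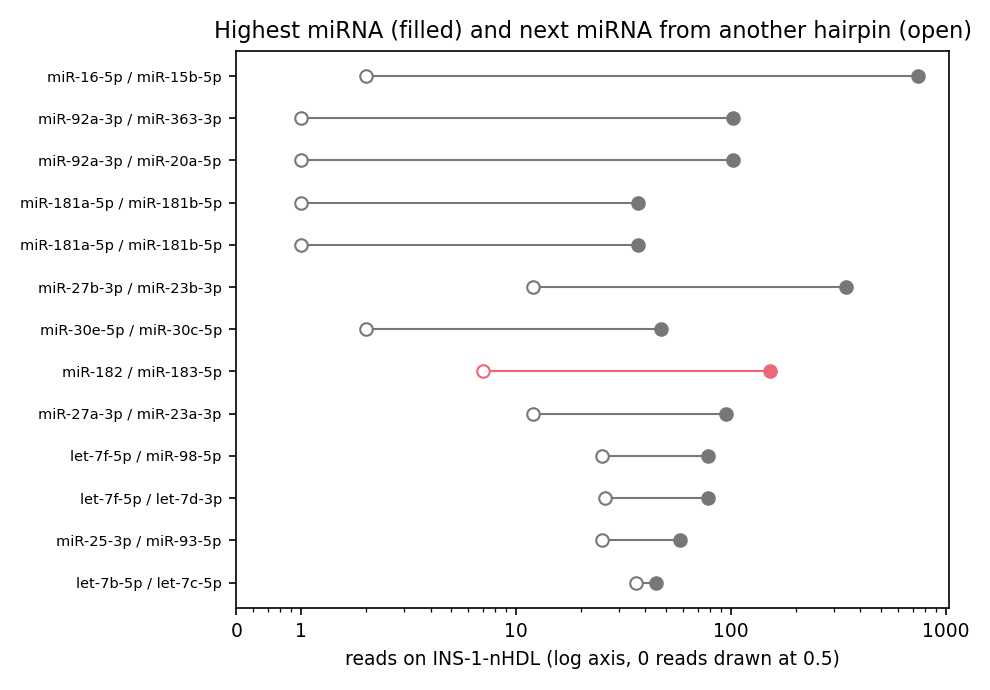
Reads on INS-1-nHDL (log axis, 0 reads drawn at 0.5) of the highest miRNA (filled) and of the next miRNA from another hairpin (open) in 13 genomic groups, ordered by the ratio of these reads, with the miR-183 cluster in red. The distance between miR-182 and miR-183-5p lies within the range of the other groups, from the pair of let-7b-5p and let-7c-5p to that of miR-16-5p and miR-15b-5p.

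Reads from 1 arm of the miR-183 hairpin were also the common case. Of 109 hairpins with both arms in the table and 1 place in the genome, 37 had at least 5 reads on INS-1-nHDL, and 33 of these had reads from 1 arm only. The exceptions were the hairpins of miR-423, miR-106b, let-7d and miR-30d. With 7 reads of miR-183-5p, an arm ratio for this hairpin is limited by depth, since 0 reads of miR-183-3p allow up to 3.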

How the data were processed

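Adapters had been trimmed by the authors with Cutadapt, and reads of sufficient length were mapped by Bowtie 1.1.2 to the rat genome, with 1 mismatch allowed. The authors deposited expected counts, that is reads per mature miRNA without normalization. A second deposited table holds the same counts rounded to whole numbers for 81 miRNAs, beside the authors' own DESeq2 fold changes and p-values, which were not used. Here, expected counts were rounded, and size factors were computed from the miRNAs that reached 5 reads in either library (DESeq2 1.42.0, edgeR 4.0.16 for TMM, R 4.3.3). Exact (Clopper-Pearson) intervals of ratios, conditional on the sum of both counts, exact intervals of odds ratios and Wilson intervals were made with scipy 1.17.1 at 95%. A value of 0 reads was taken as 3 reads in ratios given as bounds. With 1 library per condition no p-value was computed. Intervals of pairs of miRNAs compare these libraries, not the conditions, and were not adjusted for their number. The scripts were tested on simulated data. Positions are those of the deposited tables, and hairpins are RefSeq's. Named beside the members are miR-375-3p, the 3 miRNAs nearest in fold change, the neighbours in reads, miRNAs with equal seeds, and genomic groups with at least 20 reads; other miRNAs were named after their values were seen. The members and all lists were chosen with earlier results of these data known.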

Additional observations from a re-analysis of the deposited data

How the results depend on the processing

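No paired analysis was possible because the design has 1 library in each condition. Leaving out a library was not possible for the same reason. The fold change of miR-182 ran from 4.28 (2.43 to 8.21) to 10.9 (6.21 to 21.0) over the scalings. Its interval of 3.34 to 11.3 covers counting error under the DESeq2 size factors and not the choice of scaling. The interval of miR-183-5p has no upper end, so that no higher value could leave it, and its value against 3 reads ran from 0.853 to 2.18 over the scalings. Requiring 10 reads in both libraries for the size factors left them the same, and leaving out the 3p arm could not change the share of miR-182, as this arm had 0 reads. The number of miRNAs above 1.5-fold, 40, was 23 when 20 reads were required in either library and 25 when the entire interval had to lie beyond it. The number below 1/1.5-fold, 32, was 18 with the former filter and 53 when a lone read sufficed. These changes follow from the number of miRNAs that enter and from the stricter threshold. The share of the cluster in the INS-1-nHDL reads, 0.883%, was 2.34% without miR-375-3p in the total, which follows from the smaller total. With a pseudocount of 1 on normalised counts, the fold change of miR-182 was 5.64 and that of miR-183-5p was 5.97, the latter set by the pseudocount because cf-nHDL had 0 reads. The depth of cf-nHDL limits most values, since 3 of its reads are 0.0456% of its miRNA reads.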
